A study of Mus musculus with 2 samples.

Results

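The genes described here are 32 genes of the NRF2 antioxidant response and of the pentose phosphate pathway, out of 31053 genes in the count tables. They were listed by name, as genes known to be controlled by the transcription factor NRF2 or to supply it, and all 32 were found in the files. Their transcripts were counted in single cells from fibrosarcomas, a tumour of connective tissue, implanted under the skin of syngeneic wild-type C57BL/6 mice. By the design text, tumours received either autologous erythrocytes in buffered saline or saline alone. There was 1 library titled Blood and 1 library titled Control. Tumours of both libraries were digested for 45 minutes at 37 °C (collagenase B with DNase I), and erythrocytes were lysed after filtration. The number of animals behind each library is not given in the sources used here. The library titled Blood carries the treatment label of saline injection and the library titled Control that of erythrocyte injection, so titles and treatments contradict each other. Libraries are named by title here, and which of them received erythrocytes is unknown. Each title has a single library, which leaves no test and no replicate check for any difference. Intervals are exact 95% intervals that cover counting error only.

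NRF2, the product of Nfe2l2, is held at a low level by KEAP1, which marks it for degradation. Oxidants and electrophiles modify KEAP1, and NRF2 then enters the nucleus, pairs with a small MAF protein such as MAFG and binds antioxidant response elements beside its target genes. These targets make and recycle glutathione, repair oxidised proteins through thioredoxin, detoxify quinones and carbonyls, export conjugates and supply NADPH through the pentose phosphate pathway. Myeloid cells use the same NADPH both for antioxidant enzymes and for the respiratory burst.

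The library titled Blood held 12057 barcodes and 115066023 UMIs (unique molecular identifiers, which count molecules), against 9475 barcodes and 115272096 UMIs in the library titled Control. After filtering, 11339 cells titled Blood and 8828 cells titled Control were kept, with medians of 6566 UMIs in Blood and 9246.5 UMIs in Control. The libraries shared 349 barcodes. Cells were grouped into classes by marker genes, and 7 classes were compared: macrophage-like (5143 cells titled Blood, 5316 titled Control), T cell-like (1515 and 1189), neutrophil-like (1782 and 129), monocyte-like (530 and 391), NK cell-like (385 and 364), conventional dendritic cell (DC)-like (211 and 229) and mesenchymal-like (54 and 102). Levels are given as CPM, the share of a gene in all UMIs of the class in that library on the counts-per-million scale, and serve to compare 1 gene between classes or libraries, not genes with each other. As a measure of carried-over RNA, C1q transcripts, which macrophages make, stood in the other classes at 1.74% to 7.44% of their level in macrophage-like cells. Carry-over of that size from macrophage-like cells could supply 50% or more of a member's level only for Mgst1. This held in NK cell-like and T cell-like cells titled Control and conventional DC-like cells titled Blood. Carry-over from clusters left unnamed or from other classes was not estimated.

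Each member had its own distribution over the cell classes, and for 22 of 32 members the class with the highest level was the same in both libraries. Neutrophil-like cells led for 7 of these, mesenchymal-like cells for 7, monocyte-like cells for 4, macrophage-like cells for 3 and T cell-like cells for 1. The same counts were not made over all genes. Some leads were within counting error, such as Prdx1 in mesenchymal-like over macrophage-like cells, 1.02-fold in Blood (0.981 to 1.06) and Control (0.994 to 1.05). Cat led in macrophage-like cells by 1.04-fold in Blood (0.917 to 1.18). The macrophage-like count ran from 1 to 5 under other settings. Among the regulators, Nfe2l2 was highest in neutrophil-like cells, at 433 CPM in the library titled Blood and 462 CPM in the library titled Control. Monocyte-like cells followed at 294 and 299.7 CPM, macrophage-like cells at 230.5 and 242 CPM, and T cell-like cells were lowest at 40.5 and 48.0 CPM. Nfe2l2 was thus higher in all 4 myeloid classes than in T cell-like and NK cell-like cells of both libraries. Keap1, which encodes the inhibitor, ran the other way at its extremes: it was lowest in neutrophil-like cells, at 23.9 CPM titled Blood and 11.5 CPM titled Control, and highest in macrophage-like cells, at 47.0 and 55.2 CPM. The next class was T cell-like cells in Blood, close below at 46.05 CPM, and conventional DC-like cells in Control, at 46.8 CPM. Mafg (126 and 119 CPM) and Sqstm1 (285 and 243 CPM), whose product p62 binds KEAP1, were also highest in neutrophil-like cells among the 7 compared classes. Clusters left unnamed were not ranked, here and below, and some were higher for single members. Cluster 6, a macrophage-scoring cluster described below, held Mafg at 147 CPM in Blood and 143 CPM in Control, and Sqstm1 at 322 and 356 CPM.

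**Figure D1:**
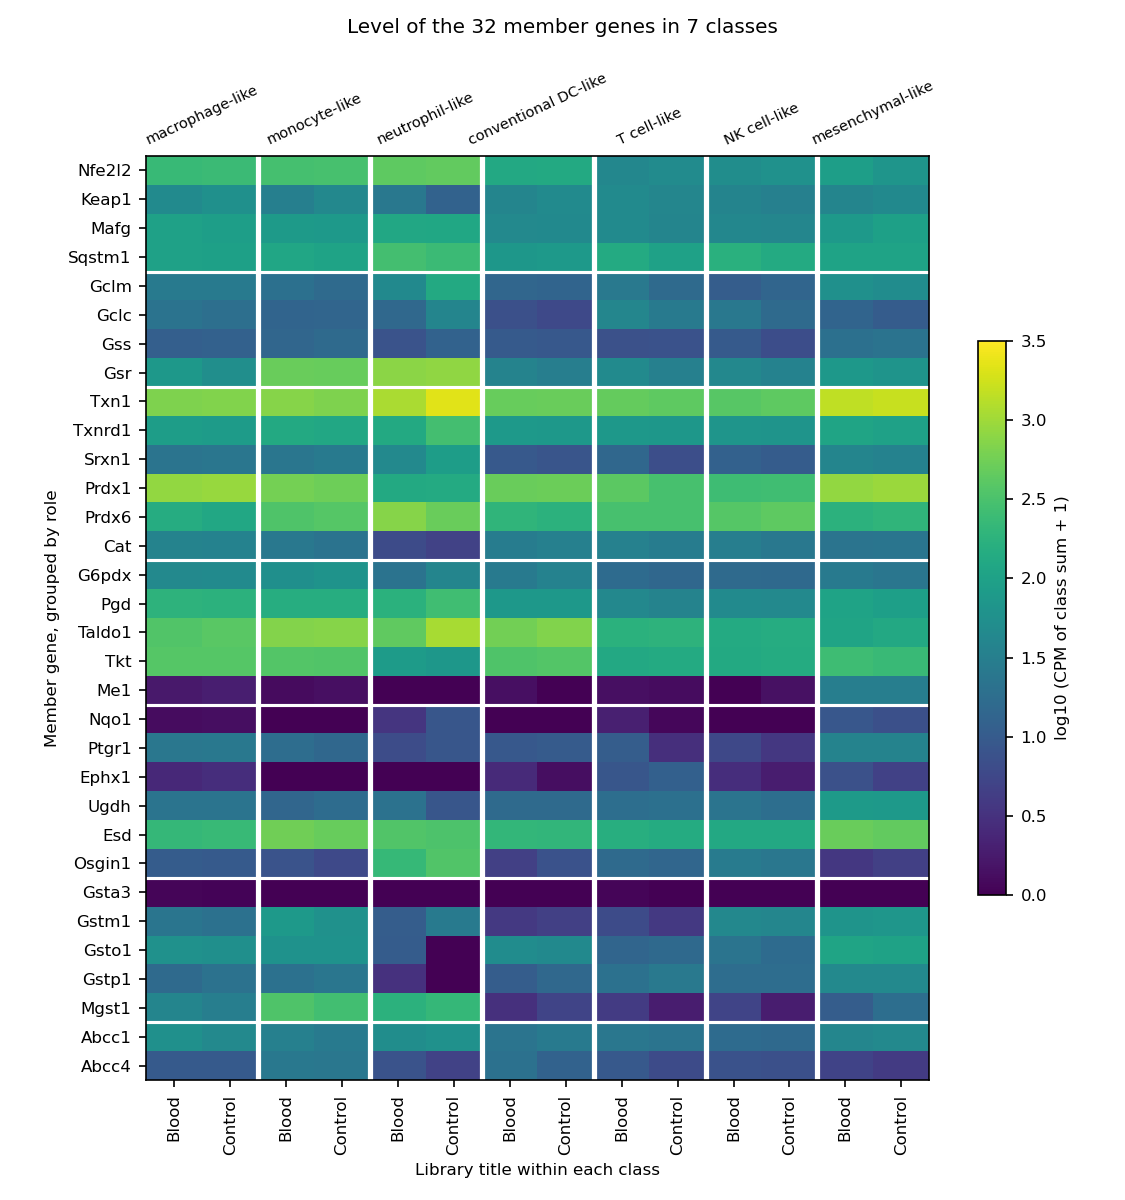
Level of each of the 32 members (lines, grouped by role) in 7 cell classes, with the library titled Blood on the left and the library titled Control on the right of each pair; colour is log10 of CPM plus 1. Gsr, Prdx6 and Osgin1 stand out in neutrophil-like cells, Me1 in mesenchymal-like cells and Mgst1 in monocyte-like and neutrophil-like cells, while Gsta3 and Nqo1 are dark nearly throughout.

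The enzymes of glutathione fell into separate patterns. Gsr, glutathione reductase, was a gene of neutrophil-like and monocyte-like cells: neutrophil-like cells held 769.8 CPM in Blood and 839 CPM in Control, monocyte-like cells 493 and 491 CPM. In the other 5 compared classes Gsr lay between 30.8 and 72.6 CPM. The subunits of glutamate-cysteine ligase, which makes the first step of glutathione synthesis, did not share a leading class between the libraries. Gclm, the modifier subunit, was highest in mesenchymal-like cells titled Blood (56.6 CPM) and in neutrophil-like cells titled Control (131 CPM), and Gclc, the catalytic subunit, in T cell-like cells titled Blood (39.1 CPM) and in neutrophil-like cells titled Control (38.5 CPM). Gss, glutathione synthetase, was low in every class, between 5.80 and 20.3 CPM.

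Thioredoxin and peroxide enzymes were spread more widely. Txn1, thioredoxin, stood at 1480.1 CPM in Blood and 1583 CPM in Control in mesenchymal-like cells, and at 1152 and 2198 CPM in neutrophil-like cells. Osteoclast-like cells, a class too small to compare at 80 and 89 cells, also held 1669.7 and 1739 CPM of Txn1. Prdx1, a peroxiredoxin that reduces peroxides, was lowest in neutrophil-like cells, at 131 CPM titled Blood and 139 CPM titled Control, and reached 851 and 924 CPM in macrophage-like cells and 866 and 944 CPM in mesenchymal-like cells. Prdx6, the peroxiredoxin that acts on phospholipids, was highest in neutrophil-like cells at 726 and 508 CPM and lowest in macrophage-like cells at 144 and 126 CPM. Cat, catalase, was low in neutrophil-like cells like Prdx1 (5.21 and 3.85 CPM) and at 20.4 to 35.3 CPM in the other classes.

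The NADPH enzymes did not share a leading class. Pgd, 6-phosphogluconate dehydrogenase, was at 185 CPM in Blood and 176 CPM in Control in macrophage-like cells and lowest in T cell-like cells, at 42.1 and 35.7 CPM. Tkt, transketolase, was at 382.2 CPM in Blood and 381.9 CPM in Control in macrophage-like cells, at 130.5 and 139 CPM in T cell-like cells and lowest in neutrophil-like cells, at 82.1 and 69.3 CPM. Taldo1, transaldolase, stood highest in monocyte-like cells titled Blood (718 CPM) and in neutrophil-like cells titled Control (1086 CPM). G6pdx, which opens the pathway, was highest in monocyte-like cells at 53.7 and 62.1 CPM. Me1, cytosolic malic enzyme, was nearly limited to mesenchymal-like cells: 30.5 CPM in Blood and 30.4 CPM in Control there, against at most 0.942 CPM in the other 6 compared classes.

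Several detoxifying enzymes were also far higher in 1 class than in the next. Osgin1, an oxidative stress induced growth inhibitor, was at 223 CPM in Blood and 354 CPM in Control in neutrophil-like cells, 8.05-fold (6.17 to 10.7) and 15.3-fold (10.7 to 21.9) above NK cell-like cells, the next class. Ugdh, UDP-glucose dehydrogenase, was at 79.1 and 78.1 CPM in mesenchymal-like cells, 3.69-fold and 3.64-fold above macrophage-like cells. Nqo1, the quinone reductase often used as a readout of NRF2, was scarcely detected: 22 UMIs titled Blood and 27 UMIs titled Control among all macrophage-like cells, 27 and 34 UMIs in mesenchymal-like cells, and 0 in monocyte-like, NK cell-like and conventional DC-like cells of both libraries. In monocyte-like cells a count of 0 allows up to 0.825 CPM in Blood and 1.16 CPM in Control. Gsta3, a glutathione transferase, had 8 and 7 UMIs in macrophage-like cells and no more than 1 in any other compared class. Mgst1, a membrane-bound transferase, was highest in monocyte-like cells at 343 and 274 CPM, followed by neutrophil-like cells at 176 and 212 CPM. Gsto1 (109 and 103 CPM) and Gstp1 (42.8 and 43.6 CPM) were highest in mesenchymal-like cells. Near-identical relatives can share or lose reads in 3' counts. Gstm2 and Gstm5, relatives of Gstm1, were counted at 31.1 and 32.2 CPM in mesenchymal-like cells titled Blood and at 40.5 and 45.0 CPM in those titled Control, so single transferase values are uncertain. Without a stated strand setting, reads of overlapping genes are also uncertain; 11 members overlap another gene on the same strand, for example Mafg with Sirt7.

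Between the libraries, no measured member reached a 1.5-fold difference in macrophage-like cells. Of 26 measured members, those with a mean of at least 10 CPM over both libraries, 0 were at least 1.5-fold higher and 0 at least 1.5-fold lower in Blood. Among all 7642 measured genes 1.24% differed by that margin, 0.393% higher and 0.851% lower. The median log2 ratio of members (Blood over Control, of CPM plus 5) was 0.0003, beside 0.01 (0.0093) over all genes. Gsr was farthest from 0, at 72.6 CPM in Blood and 53.0 CPM in Control, a ratio of 1.37 (1.32 to 1.43). Abcc1, an exporter of glutathione conjugates, had a ratio of 1.33 (1.27 to 1.39), with 56.9 CPM in Blood and 42.8 CPM in Control. Gclm stood at 26.3 CPM in Blood and 26.9 CPM in Control, Gclc at 20.3 and 18.1, Txnrd1, thioredoxin reductase, at 88.8 and 82.2, Srxn1, sulfiredoxin, at 21.4 and 22.8, and Nfe2l2 at 230.5 and 242 CPM. These 5 genes had ratios between 0.942 and 1.12. G6pdx (43.1 and 45.8 CPM), Pgd (185 and 176 CPM), Taldo1 (351 and 398 CPM) and Tkt gave ratios between 0.882 and 1.05.

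In neutrophil-like cells 10 of 22 measured members were at least 1.5-fold lower in Blood and 2 were higher. Here the libraries differed in many genes: of 5947 measured genes, 31.7% differed by that margin, 12.9% lower and 18.7% higher. The median log2 ratio of members was -0.21 against 0.05 (0.0454) over all genes. The class held 1782 cells and 3263303 UMIs in Blood, against 129 cells and 259745 UMIs in Control, so Control sets the width of the intervals. Gclm was at 45.4 CPM in Blood and 131 CPM in Control, a ratio of 0.346 (0.237 to 0.519). In Blood its 148 UMIs came from 92 cells, with up to 14 in 1 cell, and in Control its 34 UMIs came from 16 cells, with up to 10 in 1 cell. Gclc was at 14.4 CPM in Blood and 38.5 CPM in Control, from 47 and 10 UMIs, a ratio of 0.374 (0.187 to 0.830). Both subunits of the ligase were therefore lower in Blood beyond counting error.

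The thioredoxin group followed. Txnrd1 was at 132 CPM in Blood and 285 CPM in Control, a ratio of 0.465 (0.362 to 0.603). Txn1 was at 1152 CPM in Blood and 2198 CPM in Control, a ratio of 0.524 (0.480 to 0.573), with UMIs in 1214 of 1782 cells and 107 of 129 cells. Srxn1, which restores over-oxidised peroxiredoxins, stood at 43.8 CPM in Blood and 88.5 CPM in Control, with a ratio of 0.495 (0.317 to 0.806). The peroxiredoxins did not share this direction: Prdx6 was at 726 CPM in Blood and 508 CPM in Control, a ratio of 1.43 (1.20 to 1.72), and Prdx1 at 131 and 139 CPM, a ratio of 0.944 (0.671 to 1.37).

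In the pentose phosphate pathway 3 of 4 measured members were lower by the margin, against 12.9% of all genes. Taldo1 was at 443 CPM in Blood and 1086 CPM in Control, a ratio of 0.408 (0.359 to 0.466). Pgd was at 173 CPM in Blood and 266 CPM in Control, a ratio of 0.652 (0.507 to 0.850). G6pdx, at 20.5 and 38.5 CPM, rested on 10 UMIs in Control and its interval reached 1 (0.273 to 1.16). Tkt was within the margin, at 82.1 CPM in Blood and 69.3 CPM in Control. Of the other members lower in Blood, Osgin1 stood at 223 CPM in Blood and 354 CPM in Control, with a ratio of 0.631 (0.507 to 0.792), and Gstm1 at 9.81 and 26.9 CPM from 32 and 7 UMIs. Keap1 (23.9 and 11.5 CPM) and Ugdh (19.6 and 7.70 CPM) were the 2 higher in Blood, but on 3 and 2 UMIs in Control, and both intervals held 1. Nfe2l2 at 433 and 462 CPM, Gsr at 769.8 and 839 CPM and Mafg lay within the margin. Gsto1 had 31 UMIs (9.50 CPM) in Blood and 0 in Control, where 0 allows up to 11.5 CPM, so no ratio is given. Nqo1 had 8 UMIs in Blood and 2 in Control, too few for a ratio to be read.

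The neutrophil-like class was made of 2 clusters in different proportions, cluster 4 with 1038 cells in Blood and 108 cells in Control and cluster 9 with 744 and 21 cells. Within cluster 4 alone, 7 of 23 measured members were lower in Blood and 2 higher, against 10.4% and 18.5% of 5955 genes. Gclm was there at 49.5 CPM in Blood and 145 CPM in Control, Gclc at 13.4 and 45.3 CPM, Txnrd1 at 167 and 313 CPM, Srxn1 at 46.9 and 95.1 CPM, Taldo1 at 573 and 1209 CPM and Osgin1 at 242 and 371 CPM, all past the margin. Txn1 (1358 and 1997 CPM) and Pgd (219.6 and 263 CPM) fell short of it within cluster 4. In cluster 9, with 38947 UMIs in Control, 6 of 19 measured members were lower in Blood and 5 higher, against 33.6% and 31.8% of 5334 genes. Txn1 was there at 850.3 CPM in Blood and 3338 CPM in Control, a ratio of 0.255 (0.212 to 0.308), but Gsr at 449 and 103 CPM, a ratio of 4.37 (1.70 to 16.1) on 4 UMIs in Control. Gclm in cluster 9 rested on 2 UMIs in Control. The summed level of the 11 neutrophil markers was 57116 CPM in Blood and 73599 CPM in Control, with 0 markers at 0 in both libraries, and that of the 11 macrophage markers was 1925 and 1513 CPM. Of the lists for other cells, the basophil list was the largest, at 7033 CPM in Blood and 7504 CPM in Control (4 and 6 of 8 markers at 0). The monocyte list summed to 1374 CPM in Blood and 1744 CPM in Control (0 and 2 of 10 at 0). The NK cell list summed to 4004 and 5509 CPM (0 and 5 of 11 at 0) and the mast cell list to 1779 and 2822 CPM (6 and 8 of 9 at 0). The part of these in the member ratios was not tested.

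**Figure D2:**
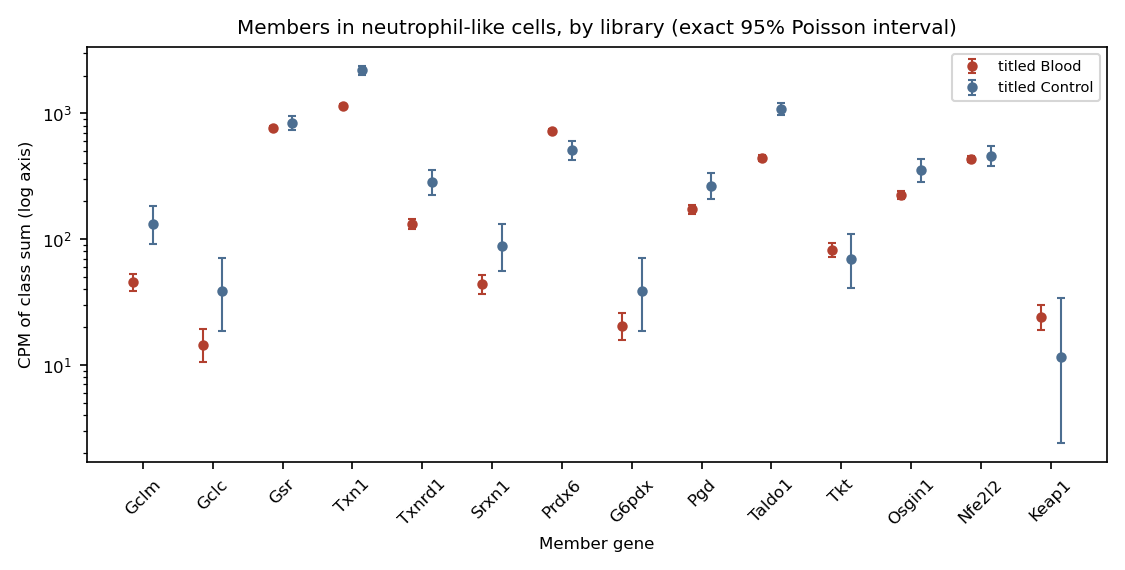
CPM (log axis) of 14 members in neutrophil-like cells, the library titled Blood left of the library titled Control for each gene, with exact 95% Poisson intervals. Gclm, Txn1, Txnrd1 and Taldo1 lie lower in Blood with separate intervals, while Gsr, Tkt and Nfe2l2 overlap.

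Outside neutrophil-like cells few members were past the margin. T cell-like cells had 1 of 22 measured members past the margin, against 2.32% of 7511 genes: Gclm at 25.2 CPM in Blood and 15.1 CPM in Control, a ratio of 1.67 (1.30 to 2.14). Its log2 ratio of 0.59 was 0.17 when doublets were kept and 0.18 when members were allowed to shape the clusters. In monocyte-like cells 0 of 27 measured members were past the margin, against 1.81% of genes. The counts were 0 of 24 for NK cell-like cells, against 3.45%, and 0 of 21 for conventional DC-like cells, against 2.97%. Among mesenchymal-like cells 1 of 27 was, against 2.58% of genes: Mgst1 at 9.67 CPM in Blood and 17.6 CPM in Control, a ratio of 0.549 (0.359 to 0.822).

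**Figure D3:**
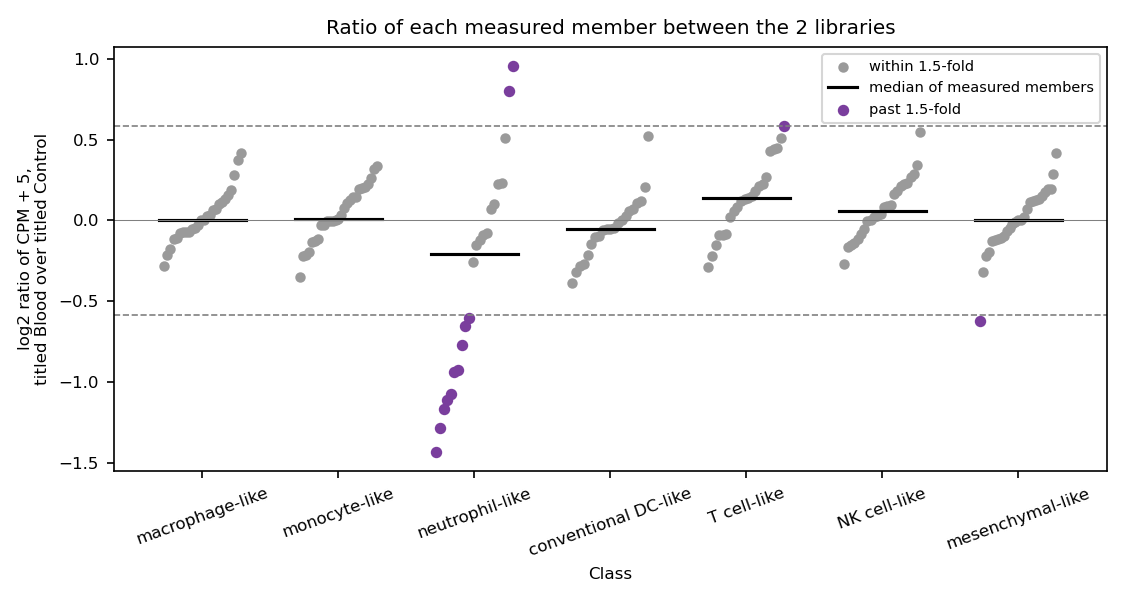
Log2 ratio of CPM plus 5, titled Blood over titled Control, for each measured member in 7 classes; black bars are medians and dashed lines mark 1.5-fold. Neutrophil-like cells hold 12 of the 14 points past the lines, and the macrophage-like points lie between -0.28 and 0.42.

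Further genes of the pathway came from lists of 33 NRF2 targets, 10 regulators of NRF2, 14 pentose phosphate and NADPH genes and 21 peroxide and thiol enzymes. In macrophage-like cells 0 of the 19, 8, 10 and 18 measured genes of these lists were past the margin between the libraries. Of all 7642 measured genes only 1.24% were past it there, so these counts are near that share. Hmox1, haem oxygenase 1, was there at 176 CPM in Blood and 239 CPM in Control, Slc7a11, the cystine importer, at 92.9 and 73.5 CPM, and Bach1, a repressor of NRF2 targets, at 81.3 and 82.1 CPM. In T cell-like cells Hmox1 was the 1 gene past the margin among 15 measured further targets, against 2.32% of all genes. It was at 69.7 CPM in Blood and 14.7 CPM in Control, a ratio of 4.76 (3.83 to 5.96). In neutrophil-like cells, where 12.9% of all genes were lower and 18.7% higher, 2 of 13 further targets were lower in Blood and 1 was higher: Blvrb, biliverdin reductase B, was at 41.7 CPM in Blood and 112 CPM in Control. Of 7 further pentose phosphate and NADPH genes 2 were lower, among them Nadk, NAD kinase, at 93.8 CPM in Blood and 166 CPM in Control. Among peroxide and thiol enzymes 2 of 14 were higher and 1 lower in neutrophil-like cells, and the methionine sulfoxide reductases went apart, with Msra at 156 CPM in Blood and 65.4 CPM in Control and Msrb1 at 1377 and 2264 CPM. Slc7a11 was at 1557 CPM in Blood and 1833 CPM in Control and Hmox1 at 504 and 431 CPM in that class, both within the margin. Nfe2l1, which encodes a relative of NRF2, was at 61.0 CPM in Blood and 26.9 CPM in Control there, the 1 of 8 regulators past the margin, and Sesn2, a stress-induced sestrin, was at 170.4 and 104 CPM.

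Few further targets differed in the smaller classes. In mesenchymal-like cells 3 of 25 were higher in Blood and 1 was lower, against 2.58% of all genes past the margin: Chac1, which degrades glutathione, was at 31.1 CPM in Blood and 13.5 CPM in Control, Sesn2 at 22.6 and 11.2 CPM, Mgst3 at 45.4 and 26.7 CPM, and Gstt1, the lower one, at 7.62 and 17.8 CPM. Sod3, extracellular superoxide dismutase, was at 9.38 CPM in Blood and 17.8 CPM in Control. In NK cell-like cells 1 of 14 was higher, the aldehyde dehydrogenase gene Aldh3a2 at 20.7 and 11.2 CPM, against 3.45% of all genes past the margin. In conventional DC-like cells 1 of 16 was lower, Blvrb at 23.4 and 39.7 CPM, against 2.97% of all genes.

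Larger differences than those between the libraries lay between clusters of macrophage-scoring cells. Cluster 6, with 766 cells titled Blood and 297 cells titled Control, scored as macrophage but was left unnamed, since Pf4 and Ppbp of the platelet list outnumbered macrophage markers among its leading genes. Its C1q transcripts summed to 6692 CPM in Blood and 6834 CPM in Control, against 7657 to 15100.2 CPM in the 7 larger named macrophage-like clusters. The platelet markers Gp9 and Gp1bb were at 0 in both libraries and Itga2b was at 0.403 and 0.269 CPM. That ranking was made over cells scoring as other classes. In a second ranking, over the other macrophage-scoring clusters, its leading genes were Cxcl3, Mt2, Mmp8, Cd36 and Mmp12. Members, pathway genes such as Hmox1 and some gene families were left out of the second ranking. Leading genes of the other clusters below were ranked in this second way, and those of sub-clusters over the rest of their cluster. Members and pathway genes were kept out of the genes used for clustering, but others that move with them were not, so the contrast of cluster 6 with macrophage-like cells is a description.

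Cluster 6 exceeded macrophage-like cells by 1.5-fold or more in both libraries for 16 of the 27 members measured, and was lower for 0, against 5.54% higher and 7.87% lower among 7380 genes. Median log2 ratios of members were 0.87 in Blood and 1.27 in Control. The ligase subunits stood out: Gclm was at 156 CPM in cluster 6 and 26.3 CPM in macrophage-like cells titled Blood, 5.94-fold (5.52 to 6.39), and at 289 and 26.9 CPM in Control, 10.8-fold (10.00 to 11.6). Gclc was at 72.7 and 20.3 CPM in Blood and at 91.8 and 18.1 CPM in Control. Gsr was 3.05-fold higher in Blood and 3.52-fold higher in Control, so 3 of the 4 glutathione enzymes were past the margin and Gss was not.

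Of the 6 thioredoxin and peroxide genes 5 were higher. Prdx1 was at 2755 CPM in cluster 6 and 851 CPM in macrophage-like cells titled Blood, and at 4477 and 924 CPM in Control. Srxn1 was at 90.3 and 21.4 CPM in Blood and at 153 and 22.8 CPM in Control. Txnrd1 was at 199 and 88.8 CPM in Blood and at 288 and 82.2 CPM in Control. Prdx6 was 3.43-fold higher in Blood and 3.64-fold in Control, and Cat 1.84-fold and 2.28-fold. Txn1 itself stayed short of the margin, at 925 and 674 CPM in Blood and 924 and 696 CPM in Control. All 4 measured genes of the quinone, carbonyl and epoxide group (Ptgr1, Ugdh, Esd and Osgin1) were higher, with Ptgr1, prostaglandin reductase 1, at 155 and 23.2 CPM in Blood and 137 and 24.2 CPM in Control. Esd, esterase D, was 3.16-fold and 3.60-fold higher in Blood and Control. Gstm1 was 4.82-fold and 6.14-fold higher, Mgst1 2.55-fold and 2.96-fold, and Abcc1 2.40-fold and 3.79-fold. The transferases Gsto1 (0.976-fold and 0.945-fold) and Gstp1 (1.23-fold and 0.993-fold) were not past the margin.

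The pentose phosphate members and the regulators did not share this. Of the 4 measured NADPH members 0 were past the margin in both libraries: Tkt was at 351 and 382 CPM in Blood and 343 and 382 CPM in Control, Taldo1 at 415 and 351 CPM and 505 and 398 CPM, G6pdx at 48.0 and 43.1 CPM and 59.9 and 45.8 CPM, in cluster 6 and macrophage-like cells. Pgd was 1.47-fold higher in Blood and 1.76-fold higher in Control. Nfe2l2 was at 228 CPM in cluster 6 and 230.5 CPM in macrophage-like cells titled Blood, and at 216 and 242 CPM in Control. Keap1 was at 45.6 and 47.0 CPM in Blood and 47.0 and 55.2 CPM in Control. Among the regulators only Sqstm1 was past the margin in both libraries, at 322 and 99.1 CPM in Blood and 356 and 97.1 CPM in Control.

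**Figure D4:**
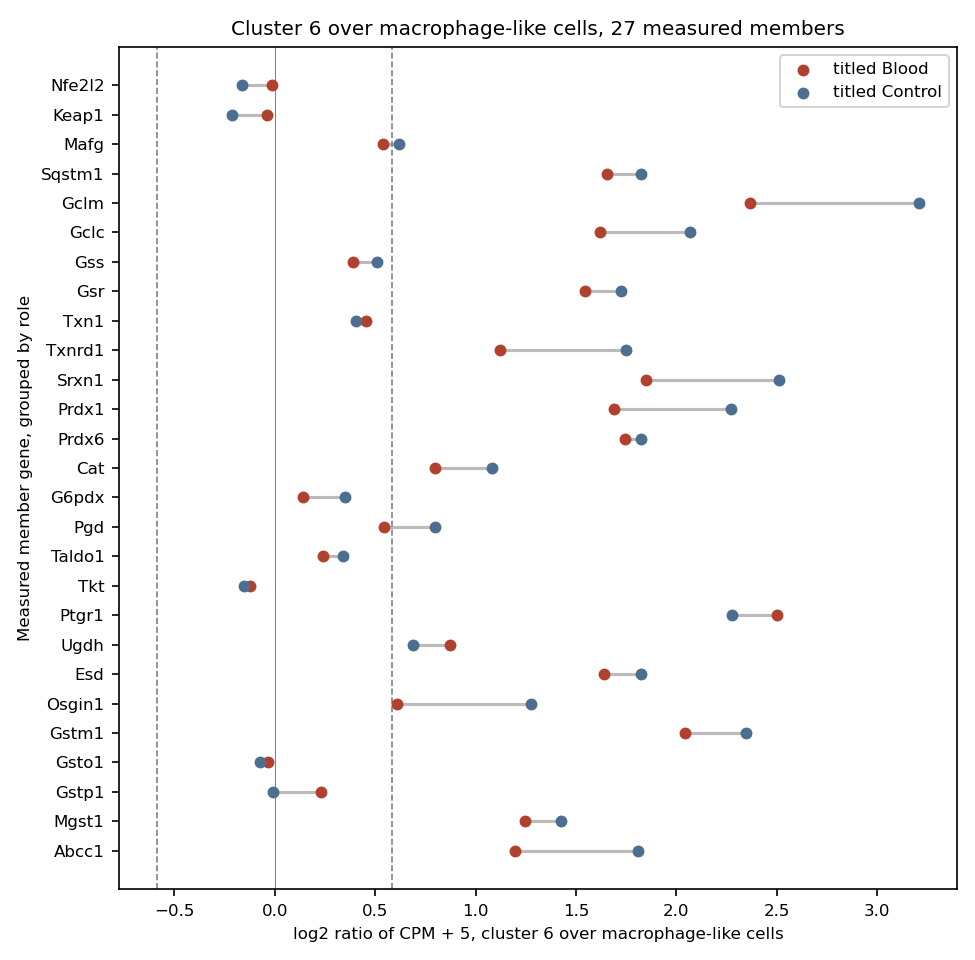
Log2 ratio of CPM plus 5 in cluster 6 over macrophage-like cells for the 27 measured members, one line each grouped by role, in the library titled Blood and the library titled Control; dashed lines mark 1.5-fold. Glutathione, thioredoxin and detoxifying genes other than Gss, Txn1, Gsto1 and Gstp1 lie right of the line in both libraries, with Gclm at 2.36 and 3.21, while Nfe2l2, Keap1 and Tkt lie near 0.

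Of the further NRF2 targets, 9 of 19 measured were higher in cluster 6 in both libraries and 1 was lower. Among all genes 5.54% were higher and 7.87% lower. Hmox1 was at 2465 CPM in cluster 6 and 176 CPM in macrophage-like cells titled Blood, and at 4094 and 239 CPM in Control. Slc48a1, a haem transporter, was at 180.1 and 44.9 CPM in Blood and 233 and 44.7 CPM in Control, and Ftl1, the ferritin light chain, at 15816 and 5803 CPM in Blood and 18709.6 and 6412 CPM in Control. Slc7a11 was at 311 and 92.9 CPM in Blood and 521 and 73.5 CPM in Control. Of 8 further regulators 0 were past the margin. Among 18 further peroxide and thiol enzymes 0 were higher and 1, Prdx4, was lower. The counts of these 2 lists are near the shares of all genes. Of 11 further pentose phosphate and NADPH genes 1 was higher, Idh1, and 3 were lower, Idh2, Prps1 and Prps2, the last 2 making the ribose phosphate activated for nucleotide synthesis.

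Among the 7 larger named macrophage-like clusters, each set against the other macrophage-like cells, few members were past the margin. Txnrd1, at 141 CPM in Blood and 145 CPM in Control, was past the margin in cluster 11 (370 and 387 cells, led by Acod1, Gbp5 and Ly6i), where 4.71% of genes were higher in both libraries. Gsr was higher in cluster 0 (102 and 76.7 CPM; 1.01% of genes) and Keap1 in cluster 3, led by the interferon-induced Ifit3 (80.1 and 86.4 CPM; 4.67% of genes). No other measured member was at least 1.5-fold higher in both libraries on the CPM plus 5 scale in these 7 clusters, and those lower in both were Gsr in cluster 1 (3.71% of genes lower), Gsr and Mgst1 in cluster 14 (2.96%), Mgst1 in cluster 2 (1.5%) and Sqstm1 in cluster 7 (3.64%). A second unnamed cluster, 13, led by Retnla, Ednrb, Lyve1 and Cd163 (438 and 289 cells), had 5 of 26 measured members higher in both libraries, against 7.37% of genes higher and, with 0 members, 6.28% lower: Sqstm1, Gclm, Ptgr1, Gstm1 and Mgst1. That count was 1 with each library clustered alone, 2 with doublets kept and 3 at resolution 2, with at least 500 genes per cell or with members among the variable genes. Hmox1 was there at 2356 CPM in Blood and 1321 CPM in Control and Bach1 at 163 and 167 CPM, but Slc7a11 at 32.2 and 42.1 CPM, below its 92.9 and 73.5 CPM in macrophage-like cells.

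**Figure D5:**
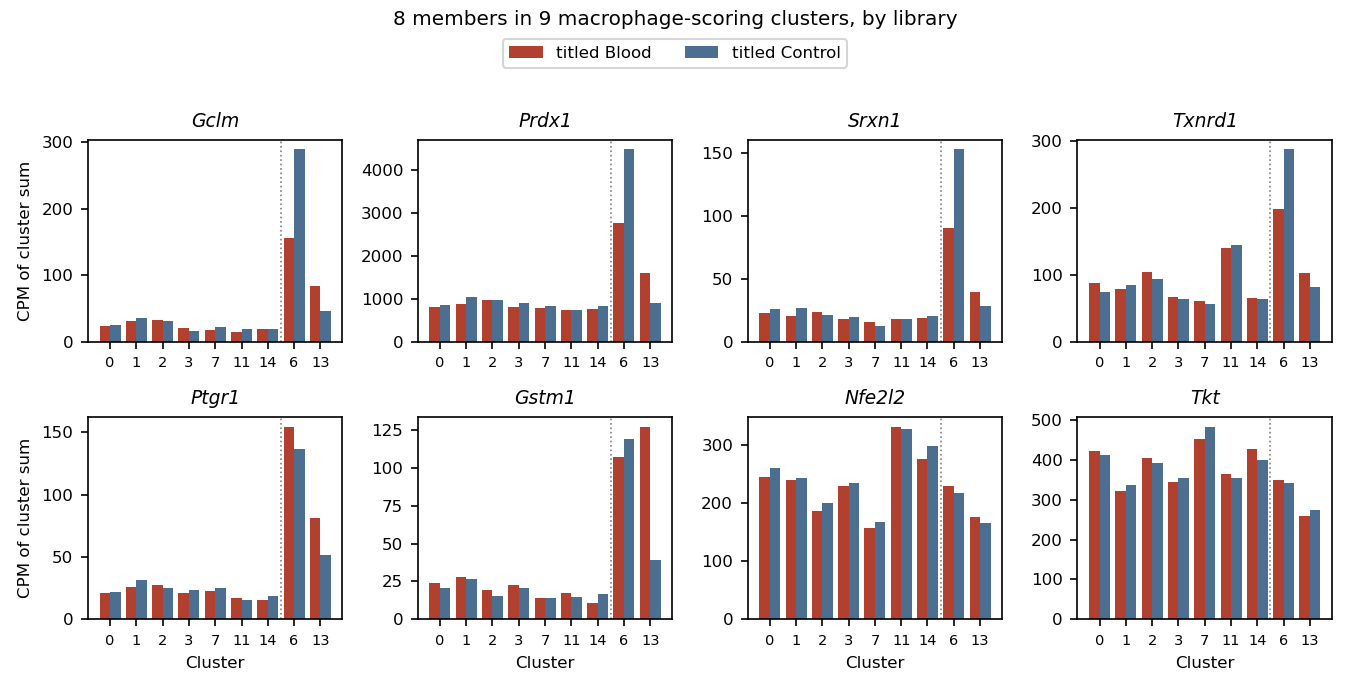
CPM of 8 members in the 7 larger named macrophage-like clusters (left of the dotted line) and the unnamed clusters 6 and 13, with bars for the library titled Blood and the library titled Control. Gclm, Prdx1, Srxn1, Txnrd1 and Ptgr1 peak in cluster 6 in both libraries, Gstm1 reaches 128 CPM in cluster 13 titled Blood, and Nfe2l2 and Tkt peak in clusters 11 and 7.

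The promoters of the members were searched for the core of the antioxidant response element. The search read the RefSeq sequences on GRCm38.p6 from 250 bases before to 50 bases after each start, on both strands, for TGACNNNGC. This core was found for 13 of the 28 members with a promoter in the table (46.4%), against 13.99% of 27025 genes. Since members were listed for known ties to NRF2, a share above that of all genes could follow from that choice. The looser TGANNNNGC was found for 18 of 28 (64.3%), against 45.0% of genes, and the AP-1 motif TGANTCA, which can overlap the core, for 5 of 28 (17.9%), against 8.97%. Of the 16 members high in cluster 6, 12 had a promoter in the table and 6 of these held TGACNNNGC. Of the other 16 members, all with a promoter, 7 did, so the core did not set the members high in cluster 6 apart. The 250 bases before the start are shown for the 5 members high in cluster 6 whose core lies there, read in the direction of the gene, with the core in capitals, also where the match lies on the opposite strand.
Gclm (GRCm38.p6 chr3:122245307-122245556, + strand): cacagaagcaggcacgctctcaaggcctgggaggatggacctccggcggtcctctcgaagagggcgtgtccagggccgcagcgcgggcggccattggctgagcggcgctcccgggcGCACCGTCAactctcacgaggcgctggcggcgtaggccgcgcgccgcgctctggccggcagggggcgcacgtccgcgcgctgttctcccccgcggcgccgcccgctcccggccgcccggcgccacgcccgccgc
Prdx1 (GRCm38.p6 chr4:116685349-116685598, + strand): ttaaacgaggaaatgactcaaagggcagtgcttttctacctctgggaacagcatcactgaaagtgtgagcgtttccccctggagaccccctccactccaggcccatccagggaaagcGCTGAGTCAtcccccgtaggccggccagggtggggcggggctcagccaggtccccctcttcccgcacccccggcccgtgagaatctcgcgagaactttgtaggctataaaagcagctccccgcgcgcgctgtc
Txnrd1 (GRCm38.p6 chr10:82858956-82859205, + strand): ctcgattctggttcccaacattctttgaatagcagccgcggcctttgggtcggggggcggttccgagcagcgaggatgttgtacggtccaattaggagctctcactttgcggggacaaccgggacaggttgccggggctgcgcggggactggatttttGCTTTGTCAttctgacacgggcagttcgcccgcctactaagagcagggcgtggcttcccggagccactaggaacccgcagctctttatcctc
Mgst1 (GRCm38.p6 chr6:138140277-138140526, + strand): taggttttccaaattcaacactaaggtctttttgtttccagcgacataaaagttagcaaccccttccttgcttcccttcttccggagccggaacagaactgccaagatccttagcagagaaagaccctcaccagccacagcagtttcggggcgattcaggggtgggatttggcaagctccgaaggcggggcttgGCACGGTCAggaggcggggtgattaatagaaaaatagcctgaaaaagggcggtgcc
Ugdh (GRCm38.p6 chr5:65435843-65436092, - strand): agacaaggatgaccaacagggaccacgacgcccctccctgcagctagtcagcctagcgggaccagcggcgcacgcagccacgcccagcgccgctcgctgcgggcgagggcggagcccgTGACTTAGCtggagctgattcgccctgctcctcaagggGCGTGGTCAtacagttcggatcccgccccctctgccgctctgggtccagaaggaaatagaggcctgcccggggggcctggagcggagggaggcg
The cores begin 134 bases before the start in Gclm, 133 in Prdx1, 92 in Txnrd1 and 56 in Mgst1, each on the opposite strand, and Ugdh holds 2, at 132 and 94 bases before it. On the strand of the match they read TGACggtGC in Gclm, TGACtcaGC in Prdx1, TGACaaaGC in Txnrd1, TGACcgtGC in Mgst1, and TGACttaGC and TGACcacGC in Ugdh. The Prdx1 core overlaps an AP-1 motif, as does that of Me1. A second start of Mgst1 and 2 other starts of Txnrd1 did not hold the core. The genes themselves lie at chr3:122245557-122270732 (Gclm), chr4:116685544-116700822 (Prdx1), chr10:82833951-82897712 (Txnrd1), chr6:138140316-138156755 (Mgst1) and chr5:65413221-65435949 (Ugdh) in GENCODE M21. By these spans the cores of Txnrd1 and Mgst1 and the Ugdh core at 94 bases lie inside the gene. The start used begins a GENCODE transcript for Gclm and Prdx1, but not for Txnrd1, Mgst1 and Ugdh. An earlier Txnrd1 start without the core does begin one. A match is a run of letters in this window and not evidence of binding.

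Within clusters 6 and 13 the libraries differed, in opposite ways for a pair of genes. In cluster 6, 4 of 27 measured members were lower in Blood and 0 higher, against 0.562% and 1.06% of 7292 genes: Gclm at 156 CPM in Blood and 289 CPM in Control, Prdx1 at 2755 and 4477 CPM, Srxn1 at 90.3 and 153 CPM and Osgin1 at 17.2 and 28.5 CPM. The median log2 ratio of members was -0.15, beside 0.08 (0.0772) over all genes. This difference did not hold when the cells were grouped otherwise: at Leiden resolution 0.5 or 2, with doublets called at the expected rate, with each library clustered alone and with at least 500 genes per cell the count was 0, and the median lay between 0.09 (0.0859) and 0.58. In cluster 13, 8 of 29 measured members were higher in Blood and 0 lower, against 3.42% and 5.35% of 7584 genes. Gstm1 was at 128 CPM in Blood and 38.9 CPM in Control, Gsr at 78.4 and 30.7 CPM, Prdx6 at 195 and 102 CPM, Gclm at 84.6 and 46.6 CPM and Prdx1 at 1605 and 911 CPM, and Ptgr1, Mgst1 and Abcc1 made up the 8. Under 12 alternative settings this count stayed between 5 and 10. C1q transcripts in cluster 13 summed to 5088 CPM in Blood and 8733 CPM in Control, and Ppbp was at 472 and 73.5 CPM. Its sub-clusters, divided after the data were seen, were unequally shared: 13-a had 156 cells in Blood and 28 in Control, 13-b 90 and 92, 13-c 86 and 25, 13-d 70 and 25, 13-e 8 and 63, 13-f 27 and 33, and 13-g 1 and 23. Within them the median log2 ratios of members were 0.08 (0.0775) in 13-a, 0.04 (0.0443) in 13-b, 0.01 (0.0097) in 13-c, 0.32 in 13-d and 0.22 in 13-f, against 0.305 in the whole cluster. Members higher and lower in Blood numbered 4 and 2 of 28 in 13-a (17.2% and 17.6% of genes), 4 and 0 of 27 in 13-b (7.72% and 10.3%), 6 and 1 of 28 in 13-c (16.5% and 11.8%), 11 and 4 of 25 in 13-d (24.8% and 27.2%) and 4 and 0 of 25 in 13-f (14.9% and 15.3%). The median of members was smaller within the 3 larger sub-clusters than in the whole cluster. Single genes did not all follow it. Gstm1 had log2 ratios of 1.57 in 13-a, 0.73 in 13-b, 0.96 in 13-c, 0.83 in 13-d and 1.12 in 13-f. Gsr had 0.98, 1.25, 0.65, -0.62 and 0.48 in the same order. The part of the make-up of the cluster in its difference was not tested.

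Cluster 6 split into smaller groups that differed between the libraries in unlike ways, in a division made after the data were seen. In sub-cluster 6-a, with 187 cells titled Blood and 96 titled Control and led by Gas6, Fcrls and Mfge8, 16 of 27 measured members were at least 1.5-fold lower in Blood and 0 higher, against 2.09% and 2.6% of genes. Gclm was there at 105 CPM in Blood and 356 CPM in Control, Prdx1 at 2144 and 5171 CPM, and Hmox1 at 1647 and 4764 CPM. In sub-cluster 6-e, with 55 and 39 cells, 12 of 26 measured members were higher in Blood and 1 lower, against 19.6% and 6.6% of genes. Of 27 measured members 4 were higher and 3 lower in 6-b (17.6% and 7.26% of genes), 3 higher and 7 lower in 6-c (13.9% and 7.17%) and 4 higher and 1 lower in 6-d (12.5% and 4.64%). Sub-clusters 6-f and 6-g, with 9 and 14 cells in Blood and 19 and 0 in Control, were not compared.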

How the data were processed

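Raw UMI counts per gene and cell, as deposited by the authors, were used for both libraries. Per the submitters' processing notes they were made with Cell Ranger 3.1.0 on mm10, and per the labels' protocols with 10x 3' chemistry v3. The filter required 300 genes and 500 UMIs per cell, with mitochondrial UMIs up to 20%. Doublets called by Scrublet were removed, 278 titled Blood (2.39%) and 157 titled Control (1.75%), below the expected 9.29% and 7.19%, so some remain. Cells were clustered with scanpy 1.11.5 (2000 variable genes without member and pathway genes, leaving 1980, then 30 components, 15 neighbours, Leiden resolution 1). Clusters were named from 23 marker lists with limits set after the data were seen, and 13.3% of cells titled Blood and 10.0% titled Control stayed unnamed. Counts were summed per class and library and given as CPM. Measured genes had a mean of at least 10 CPM, log2 ratios used CPM plus 5, and a difference was counted from 1.5-fold. Classes needed 100 cells in both libraries, mesenchymal-like cells 50. Intervals are exact (Poisson, conditional binomial) at 95%, and a count of 0 was bounded by 3 counts. The steps were tested on simulated data. Members and gene lists were chosen with earlier results of these data known. All members could be named; values were given in full for up to 8 members past 1.5-fold with at least 50 counts in a class, for 12 fixed members in macrophage-like and neutrophil-like cells, and for up to 4 genes past 1.5-fold of each further list with Hmox1, Slc7a11 and Bach1.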

Additional observations from a re-analysis of the deposited data

Results flagged for a closer look

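Gclm differed in direction between classes, with a log2 ratio (Blood over Control, CPM plus 5) of 0.59 in T cell-like cells and -1.43 in neutrophil-like cells, a gap of 2.02. It also differed between the unnamed clusters, with 0.79 in cluster 13 and -0.87 in cluster 6, a gap of 1.66. Prdx1 had log2 ratios of 0.81 in cluster 13 and -0.70 in cluster 6, a gap of 1.51. These were picked out because 1 library of each title moved in opposite ways, and the differences were not tested. In 5 other settings 0 members were lower by the margin in cluster 6, Gclm and Prdx1 included. The T cell-like value of Gclm fell to 0.17 when doublets were kept.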

How the results depend on the processing

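No paired analysis was possible because each title has 1 library. Of 15 other settings, 1 was chosen after seeing the data (clusters 6 and 13 counted as macrophage-like). Removing neutrophil-like cells with at least 5 UMIs of mast cell or basophil proteases removed 0 cells. Across settings, 13 to 20 members were higher in cluster 6 in both libraries, and 7 to 11 were lower in neutrophil-like cells titled Blood, with medians of -0.41 to -0.15. Where cells were regrouped, the cluster that took most cells of cluster 6 or 13 stood for it, so the cells differ. For cluster 6 these were 494 cells titled Blood and 845 titled Control with each library clustered alone, against 766 and 297. Settings that changed only the scaling or filter of levels kept the same cells. The cluster 6 median between libraries (-0.15) changed sign in 5 settings given next. With the main settings 3 members were at least 2-fold apart in both libraries between the 7 larger named macrophage-like clusters. That count was 15 with clusters 6 and 13 among them, so it depends on which clusters are named. With doublets kept, 4 members were higher in neutrophil-like cells, 5 were highest in macrophage-like cells and 14 were 2-fold apart between macrophage-like clusters. In that setting 2 were higher in cluster 13 in both libraries, and 5 were higher in cluster 13 titled Blood. At resolution 0.5, 5 were highest in macrophage-like cells, 1 was 2-fold apart, and cluster 6 had a median of 0.10 (0.1007) and 0 lower. At resolution 2 these were 5, 15, 0.18 and 0, with 3 higher in cluster 13. With each library clustered alone they were 5, 5, 0.58 and 0, with 1 higher in cluster 13. With at least 500 genes per cell, 5 were highest in macrophage-like cells, cluster 6 had 0.09 (0.0859) and 0 lower, and 3 were higher in cluster 13. With doublets at the expected rate cluster 6 had 0.14 and 0 lower. With members among the variable genes 3 were higher in cluster 13. With per-cell means the macrophage-like median was 0.08 (0.0778), 5 were 2-fold apart and 2 lower in cluster 6. With equal cluster weights 1 member was higher in macrophage-like cells and 1 highest there. At 10% mitochondrial UMIs 2 were highest in monocyte-like cells. With clusters 6 and 13 counted the macrophage-like median was 0.07 (0.0665), 5 were highest there and 15 were 2-fold apart. The cause was not tested. Depth limits neutrophil-like cells titled Control (259745 UMIs) most.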
